A study of Mus musculus with 74 samples.

Results

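Ctla4, Cd28, Icos and Raph1 are 4 protein-coding genes that follow one another on mouse chromosome 1, and they were followed here through thymic epithelial cells that carried mutant alleles of Aire. They are 4 of the 17853 genes with a row in at least 1 of 6 deposited count tables. The set was chosen by measured values: Ctla4 had stood out for its higher level in Aire mutant libraries of these same tables, and Cd28, Icos and Raph1 were taken as its neighbours. Differences of these 4 genes between mutant and control libraries are therefore given as a description, with standard errors and no test. Cd3e, which encodes the invariant epsilon chain of the T cell receptor complex, was followed in the same libraries as a measure of carried-over T cells.

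CTLA-4 and CD28 are related receptors of T cells that bind the same ligands, CD80 and CD86, on antigen-presenting cells. CD28 gives the activating signal, and CTLA-4, which binds more tightly and is abundant in regulatory T cells, limits it. ICOS, another member of the family, binds ICOS ligand and sustains helper and regulatory T cells. Raph1 encodes lamellipodin, which brings Ena/VASP proteins to the leading edge of moving cells, and it is no relative of the receptors. In the thymus, medullary epithelial cells with high MHC class II (mTEChi) make AIRE, a nuclear protein through which they express genes of other organs, and they display CD80 and CD86 to developing T cells.

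The data were MARS-seq libraries, which count tags from the 3′ ends of transcripts, made from sorted mTEChi of mice aged 4 to 7 weeks. Of 74 libraries, 73 fell into 21 groups by the genotype at Aire. On the C57BL/6 (B6) background, the null line had 3 +/+, 5 +/- and 4 -/- libraries, the Y86C line 3 of each genotype, the C313X line 3 +/+, 2 +/C313X and 3 C313X/C313X, and the C442G line 3 +/+, 5 +/C442G and 6 C442G/C442G. V303M was on the NOD background, again with 3 libraries for each genotype. A table shared by several NOD lines held 3 Aire+/- and 3 Aire-/- libraries, 5 +/+ libraries (2 of them with T in place of Y in the allele name of their titles) with 4 +/C313Y, and 3 +/+ with 3 -/C313Y, which carry the null allele opposite C313Y. Each mutant group was compared with the +/+ libraries of its own line, or with Aire+/- for the NOD null line, which gives 13 comparisons. The labels do not say that libraries came from separate animals, so errors and p-values measure only the spread between these libraries.

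Total counts ranged from 1016619 to 7225403 per library. All 8 mTEChi markers looked at (Aire, Epcam, Fezf2, H2-Aa, H2-Eb1, Cd40, Krt5 and Krt14) had counts in every library. Aire itself was higher, not lower, in the -/- libraries of the B6 null line, by 0.68 ± 0.14 (log2, SE; edgeR, adjusted p = 0.00193), and by 1.32 ± 0.08 in Y86C homozygotes (edgeR, adjusted p = 5.97e-15). Where the null deletion lies relative to the 3′ tags is not given in the sources used here, so the Aire count does not check the genotype labels. Other markers of the 8 also differed in the B6 -/- libraries (edgeR, adjusted p under 0.05). Fezf2, H2-Aa and H2-Eb1 were higher by 0.27, 0.56 and 0.44, and Krt5 and Krt14 lower, at -1.14 and -0.86. Of all genes there, 17.7% were higher and 18.9% lower by that test. Krt5 and Krt14 were also lower in Y86C and C442G homozygotes, and neither passed in C313X homozygotes. In bulk libraries, fewer cells of a type and less RNA per cell cannot be told apart.

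The genes lie in RefSeq's GRCm38.p6 annotation of chromosome 1 in the order Raph1 (chr1:60471180-60567074, minus strand), Cd28 (chr1:60746388-60773359, plus strand), Ctla4 (chr1:60909025-60915832, plus strand) and Icos (chr1:60960773-61000322, plus strand). Measured from start to start, Icos is 51.7 kb, Cd28 162.6 kb and Raph1 342.0 kb from Ctla4. The GENCODE annotation holds 4 protein-coding genes in the 518.0 kb from Raph1 to Icos, and they are these 4. RefSeq's table of gene starts holds a window for Ctla4 and for Raph1, and the 250 bases before each of these starts are shown. The Raph1 window lies within the gene's coordinates given above, so its start is not the outer end of the annotated gene. Whether either sequence bears on the counts was not tested. Capitals mark a match to the core that NFAT factors bind, which reads GGAAA and on the opposite strand TTTCC.
Ctla4, chr1:60908775-60909024, plus strand: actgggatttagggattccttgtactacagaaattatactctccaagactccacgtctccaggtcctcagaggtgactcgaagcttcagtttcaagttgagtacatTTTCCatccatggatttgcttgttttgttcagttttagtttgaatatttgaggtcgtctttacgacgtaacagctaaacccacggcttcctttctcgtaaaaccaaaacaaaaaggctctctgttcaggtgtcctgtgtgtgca
Raph1, chr1:60566766-60567015, minus strand: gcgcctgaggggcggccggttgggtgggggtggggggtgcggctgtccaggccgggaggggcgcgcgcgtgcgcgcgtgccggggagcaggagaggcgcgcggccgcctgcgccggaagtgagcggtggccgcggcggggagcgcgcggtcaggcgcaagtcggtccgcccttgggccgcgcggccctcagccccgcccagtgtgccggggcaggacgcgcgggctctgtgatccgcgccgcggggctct
The Ctla4 sequence has a GC content of 42.4%, below the median of 52.4% over 32851 such windows, and 7 CpG against a median of 6. That of Raph1 has 81.6% GC and 41 CpG, and 99.25% of windows have a lower GC content. Both strands were searched for 5 motifs, and Raph1 matched none of them. Ctla4 had 1 match to the NFAT core, which 55.6% of windows contain. It had 1 match to the TATA letters TATAA, which 22.8% of windows contain. The RUNX letters TGTGGT, present in 14% of windows, were not found in it. Neither were the AP-1 letters TGANTCA (6.75% of windows) or the NF-kB letters GGGNNNNNCC (45.8%). A match is a description of the sequence, and the absence of one says only that these letters are not in the window.

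Ctla4 had counts in mTEChi of all 6 tables. Levels are in CPM, counts scaled to the total of the library. In the B6 null line it stood at 8.02, 5.32 and 4.12 CPM in the +/+ libraries, at 9.23, 4.91, 4.87, 3.82 and 8.43 CPM in +/- and at 54.9, 58.1, 36.5 and 51.7 CPM in -/-. All 4 -/- libraries lay above every other library of the line, while +/- and +/+ overlapped. The fitted log2 difference from +/+ was 3.15 ± 0.25 (SE) for -/- and 0.07 ± 0.33 for +/-. In this line 15.4% of 12700 tested genes had -/- libraries all above the +/+ libraries.

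In the Y86C line, whose change lies in the part of AIRE through which it multimerises, Ctla4 stood at 4.63, 8.10 and 9.42 CPM in +/+, 9.42, 12.3 and 13.01 CPM in +/Y86C and 45.4, 62.0 and 88.3 CPM in Y86C/Y86C. Homozygotes were again apart from the rest, by 3.37 ± 0.27 (log2, SE), where 15.0% of genes had such a range. The heterozygotes differed by 0.77 ± 0.36, and their range met that of the wild type at 9.42 CPM. On library totals scaled with TMM factors, the +/Y86C and +/+ ranges no longer overlapped. On that scale 10.5% of genes had a higher range without overlap in +/Y86C, and 7.83% in CPM.

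For C313X, a stop within the first zinc finger (PHD) of AIRE, the +/+ libraries were at 1.84, 7.71 and 13.2 CPM, the 2 +/C313X libraries at 3.19 and 9.20 CPM and the homozygotes at 75.4, 38.3 and 41.5 CPM. The homozygote difference was 2.80 ± 0.54 (log2, SE), its large error going with the spread among the wild types, and 10.3% of genes had a higher range without overlap. The heterozygotes, at -0.50 ± 0.70, lay inside the wild-type range.

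C442G, a change in the other PHD finger, was the B6 allele with high Ctla4 in heterozygotes too. The +/+ libraries were at 4.00, 7.38 and 6.83 CPM, and the 5 +/C442G libraries at 54.5, 43.2, 32.0, 31.5 and 51.8 CPM. The 6 homozygotes ran from 54.3 to 83.3 CPM. Both mutant groups lay wholly above the wild type, by 3.49 ± 0.23 (log2, SE) in homozygotes, where 11.2% of genes had such a range, and by 2.86 ± 0.24 in heterozygotes, where 7.9% had. As a share of the homozygote's CPM difference from wild type, the heterozygote's difference was 64.7% for C442G, 7.26% for Y86C, 0.964% for the null and -3.14% for C313X. These shares are levels set side by side, and the heterozygote differences were not tested against each other.

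**Figure D1:**
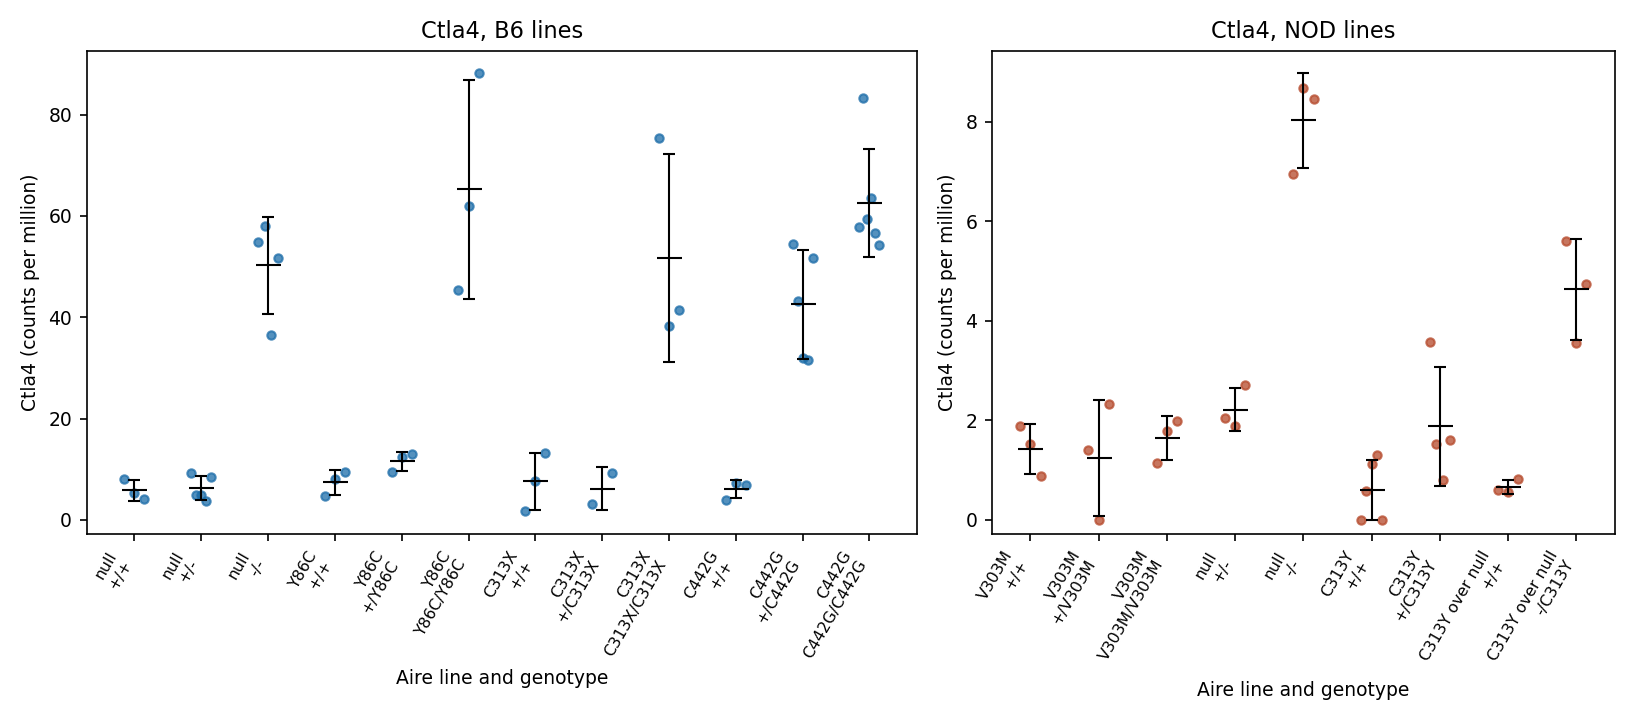
Ctla4 in CPM (linear axes that differ between strains) in each library of the B6 lines (left) and NOD lines (right), with 1 point a library and bars for the mean ± SD of the group. On B6, the homozygotes and +/C442G sit between 31.5 and 88.3 CPM, above all libraries of the other groups, whose highest is at 13.2 CPM.

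On the NOD background Ctla4 was at lower levels. The NOD null line stood at 2.06, 1.89 and 2.71 CPM in Aire+/- and at 6.95, 8.69 and 8.46 CPM in Aire-/-, groups that did not overlap, with a log2 difference of 1.96 ± 0.48 (SE). In that comparison 9.26% of genes had a higher range without overlap. The -/C313Y libraries were at 5.60, 3.56 and 4.74 CPM and their +/+ libraries at 0.592, 0.567 and 0.8285 CPM, a difference of 2.82 ± 0.60, with 12.7% of genes separated in that direction.

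The heterozygous +/C313Y libraries, at 3.58, 1.52, 0.810 and 1.61 CPM, overlapped their wild types, at 0, 0.571, 1.13, 1.29 and 0 CPM. Their fitted difference was 1.54 ± 0.58 (log2, SE). No separation was seen for V303M, where +/+ stood at 1.88, 1.52 and 0.887 CPM, +/V303M at 1.40, 0 and 2.33 CPM and V303M/V303M at 1.14, 1.80 and 1.99 CPM. Counts there were too low to pass the filter, and without it the differences were 0.22 ± 0.58 and 0.01 ± 0.68.

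Ranked by mean, the groups ran from Y86C/Y86C (65.2 ± 21.6 CPM, SD, n = 3) through C442G/C442G (62.5 ± 10.6, n = 6), C313X/C313X (51.7 ± 20.5, n = 3), the B6 -/- libraries (50.3 ± 9.58, n = 4) and +/C442G (42.6 ± 10.8, n = 5). Each of these overlapped its neighbour in the order. A gap followed +/C442G, whose lowest library, at 31.5 CPM, lay above every library of the groups ranked below it. The next, +/Y86C (11.6 ± 1.91, n = 3), did not overlap NOD Aire-/- just below it but did overlap the C313X and Y86C wild types further down. The -/C313Y group (4.63 ± 1.024, n = 3) lay above NOD Aire+/- just below it and overlapped +/C313Y, the group after that. All groups below -/C313Y were NOD groups. The wild-type median was 7.11 CPM over 12 B6 libraries (1.84 to 13.2) and 0.8285 CPM over 11 NOD libraries (0 to 1.88, 2 of them at 0). Strain and count table coincide, so the 2 cannot be told apart. Over the 13 comparisons, Ctla4 was higher without overlap in 7.

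**Figure D2:**
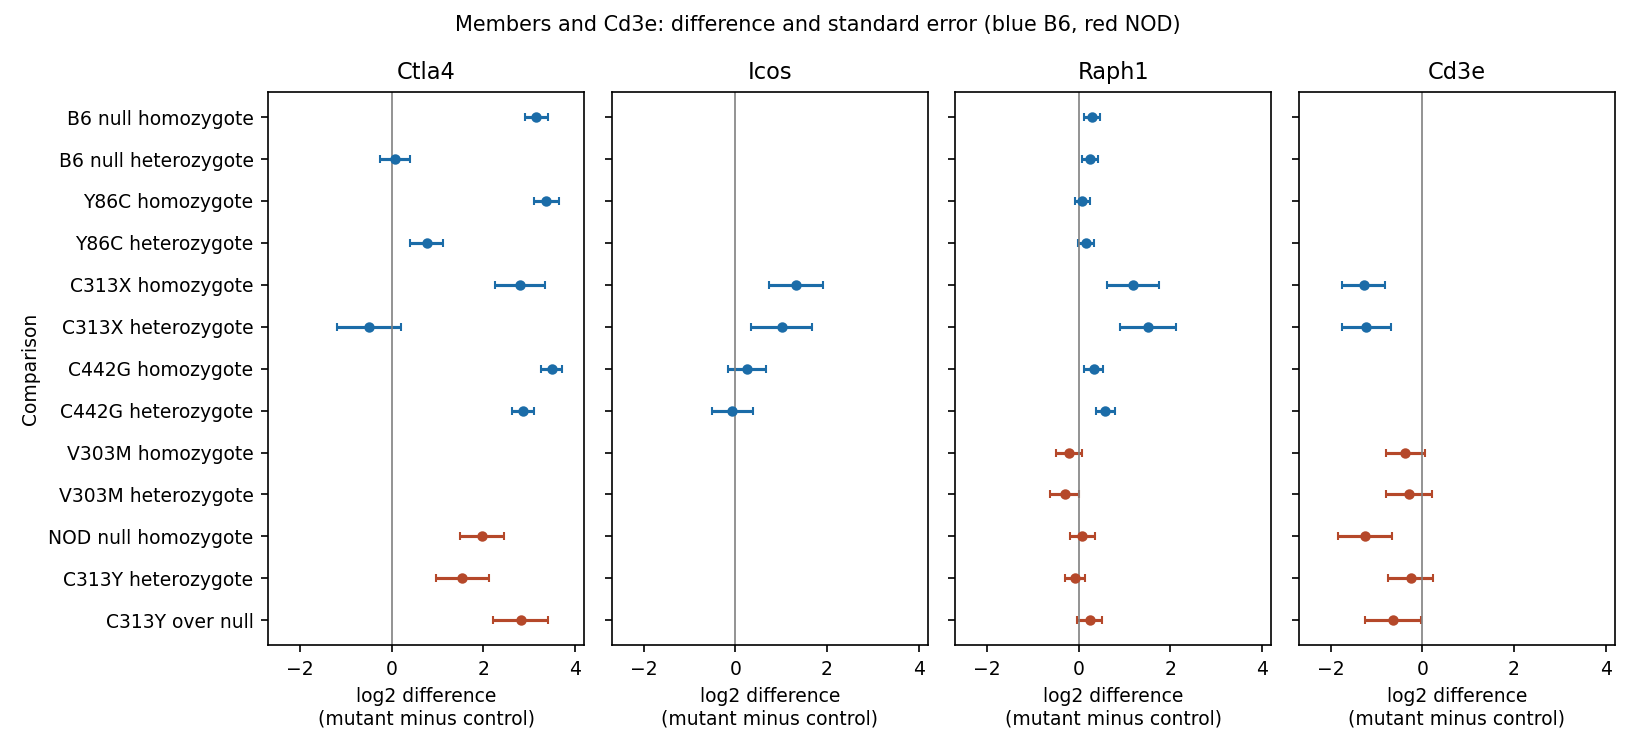
Fitted log2 differences from control (± SE) of Ctla4, Icos, Raph1 and Cd3e in each comparison (blue for B6, red for NOD) where the gene passed the filter on low counts, which Cd28 never did. Ctla4 reaches 3.49 in C442G homozygotes, while Raph1 lies between -0.30 and 1.51 and all Cd3e points lie below 0.

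Icos, the neighbour nearest to Ctla4, was counted at a few tags per library. In the B6 null line it ran from 2.63 to 4.41 CPM in -/- and from 0.592 to 1.82 CPM in +/+, without overlap. Y86C/Y86C libraries ran from 3.04 to 3.53 CPM and their wild types from 1.42 to 2.03 CPM, likewise apart. Both sets of counts fell below the filter, and fits without it gave 1.59 ± 0.67 and 1.19 ± 0.50 (log2, SE).

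In the C313X line Icos passed the filter, with differences of 1.32 ± 0.59 in homozygotes, from 0.948 to 2.03 with +/+ library 6 or 7 left out, and 1.009 ± 0.67 in heterozygotes, from 0.560 to 1.73 without +/C313X library 8 or +/+ library 7. The heterozygote mean of 3.11 CPM against 1.39 CPM came from 2 libraries that did not overlap the wild types, the lowest at 2.392 CPM against a highest of 2.368 CPM, where 9.56% of genes had a higher range without overlap. Those of the homozygotes did overlap their wild types. C442G showed no such difference, at 0.26 ± 0.42 and -0.07 ± 0.45. In -/C313Y libraries Icos averaged 0.367 CPM against 1.42 CPM in wild type, the opposite direction. The ranges did not overlap (0 to 0.822 CPM against 0.888 to 2.27 CPM), on 4 counts against 11 in sum and below the filter. In that comparison 27.2% of genes lay lower without overlap. Icos thus had a higher range without overlap in 3 of the 13 comparisons, in each of which 9.56% to 15.4% of genes had one.

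Cd28 was listed in 5 tables, was not analysed here in the Y86C line and passed the filter in none. Its counts ran from 0 to 10 per library. Summed over libraries it had 16 counts in the 4 B6 -/- libraries and 5 in the 3 +/+, 30 in the 6 C442G/C442G and 4 in the 3 +/+, 2 in the 3 NOD -/- and 13 in the 3 Aire+/-. Its range was higher without overlap in 0 of the comparisons. A difference in Cd28 was not detectable at this depth, and unfiltered fits had standard errors from 0.74 to 1.61.

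Raph1 passed the filter in all 6 tables. It averaged 24.0 ± 2.18 CPM (SD, n = 4) in the B6 -/- libraries and 21.1 ± 2.66 (n = 3) in +/+, a log2 difference of 0.29 ± 0.18 (SE). The difference was 0.08 ± 0.17 in Y86C homozygotes, 0.33 ± 0.21 in C442G homozygotes, 0.08 ± 0.27 in the NOD null line and 0.23 ± 0.27 in -/C313Y. All 5 are within 2 standard errors of 0. In +/C442G it was 0.58 ± 0.21, with 1 library at 39.4 CPM.

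Only the C313X table gave a larger value among the fitted Raph1 differences, at 1.18 ± 0.57 in homozygotes and 1.51 ± 0.61 in heterozygotes. Without +/+ library 6 these values were 0.605 and 0.931, and without +/+ library 7 they were 1.96 and 2.30. Levels in that table were low, at 3.10 CPM in +/+, 5.93 CPM in homozygotes and 8.82 CPM in heterozygotes, against a B6 wild-type median of 19.1 CPM. Raph1 and its neighbour Abi2 are transcribed towards each other. Their 3′ ends overlap by 10766 bases in RefSeq and lie 1133 bases apart in GENCODE. Whether strand was used in counting is not stated, so their reads may not be told apart.

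Cd3e was called in none of the comparisons where it passed the filter. In the C313X line it was at -1.28 ± 0.47 (log2, SE; edgeR, adjusted p = 0.0695) in homozygotes. In NOD Aire-/- it was at -1.26 ± 0.59 (edgeR, adjusted p = 0.184), in -/C313Y at -0.65 ± 0.61 (edgeR, adjusted p = 0.509) and in V303M/V303M at -0.37 ± 0.43 (edgeR, adjusted p = 0.979). The -/C313Y value turned to 0.43 without +/+ library 3, and that of NOD Aire-/- went to -0.66 without the Aire+/- library with the most Cd3e and to -0.50 against all 8 NOD wild types. The C313X value passed the test with +/+ library 2 left out (-1.50, edgeR, adjusted p = 0.0423).

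Summed over the libraries of a group, C313X/C313X held 530 Ctla4 and 30 Cd3e counts and their wild types 67 and 66. NOD Aire-/- held 51 and 12, and Aire+/- 22 and 50. The -/C313Y libraries held 47 and 15, and their wild types 6 and 23. In these 3 comparisons the mutants held more Ctla4 counts and fewer Cd3e counts in sum. One +/+ library held 17 of the 23 Cd3e counts in the last, and 1 Aire+/- library 29 of the 50.

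In the C442G line, homozygotes had 1260 Ctla4 and 23 Cd3e counts over 6 libraries, and the wild types 46 and 13 over 3. The B6 null line was the exception in direction, with 18 Cd3e counts in the 4 -/- libraries against 3 in the 3 +/+, or 1.75 against 0.365 CPM, below the filter. Ctla4 counts there were 549 and 39. Cd3e was not analysed here in the Y86C line.

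**Figure D3:**
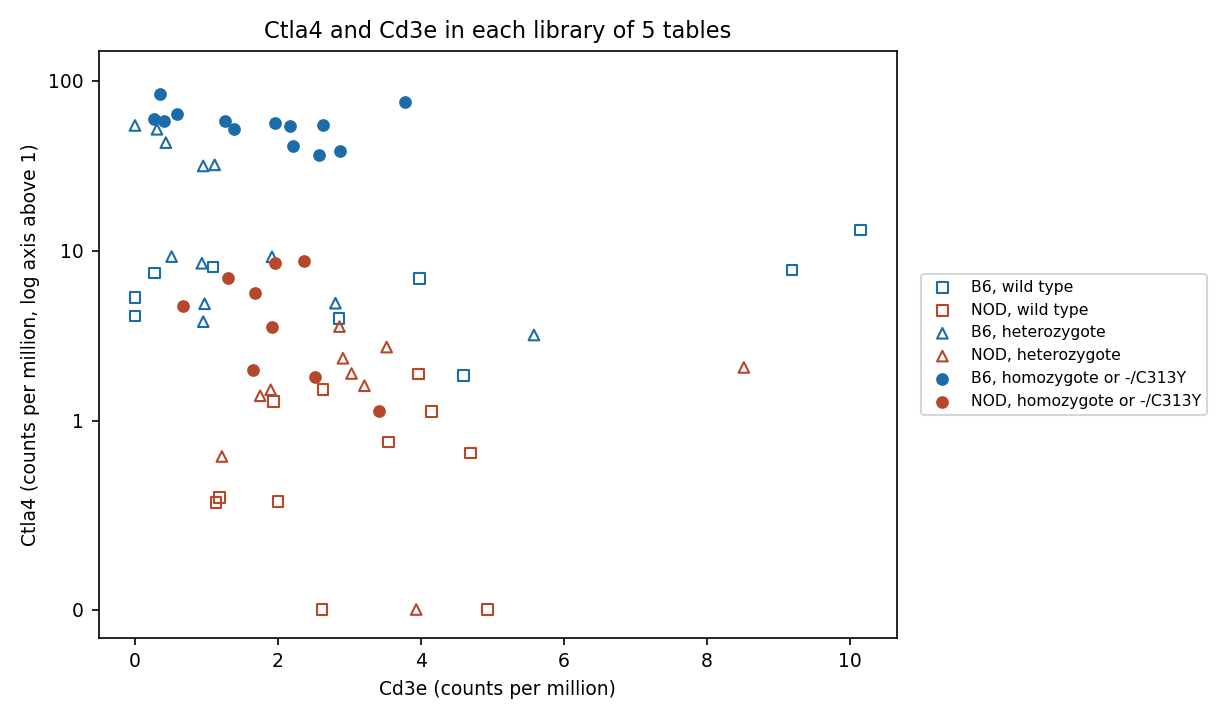
Ctla4 (log axis above 1 CPM) against Cd3e (linear axis), each in CPM, with 1 point a library in the 5 tables that list Cd3e, colours for strain and markers for genotype. The B6 homozygotes, at 36.5 CPM of Ctla4 or more, sit at Cd3e values below those of 2 C313X wild types, which have the most Cd3e, the higher at 10.2 CPM. Against their own +/+ libraries, the B6 -/- libraries averaged more Cd3e, at 1.75 against 0.365 CPM.

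A list of 22 T cell and thymocyte markers was followed beside Cd3e, of which 20 or 21 had rows in a table. Thy1, a surface protein of T cells, was the most abundant in all 6 tables, and Cd3e, Cd8b1 and Ptcra were at 0 in some libraries. The summed level ran from 191.8 to 303.2 CPM in the B6 -/- libraries and from 221 to 274 in +/+ (two-sided exact permutation test, p = 0.771). It ran from 163 to 191 CPM in Y86C/Y86C against 231 to 239, from 209 to 277 in C313X/C313X against 392 to 455, from 182 to 237 in NOD Aire-/- against 267 to 565, and from 169 to 201 in -/C313Y against 249 to 296. In these 4 comparisons the mutants lay below their controls without overlap, at p = 0.1 (two-sided exact permutation test), the smallest that 3 against 3 libraries can give. In CPM, 44.6%, 31.2%, 29.3% and 27.2% of all genes lay lower without overlap in the same 4 comparisons.

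For +/C442G the sum ran from 137 to 187 CPM against 215 to 330 (two-sided exact permutation test, p = 0.0179), where 17.8% of genes lay lower without overlap, and for C442G/C442G from 180 to 278 (p = 0.286, same exact test). Adjusted over the 13 comparisons, no p was below 0.155. Among the groups where Ctla4 was highest, the sum lay below the control range in Y86C/Y86C, C313X/C313X and +/C442G. It overlapped that range in the B6 -/- and C442G/C442G libraries. The part of carried-over T cells in the Ctla4 counts was not tested.

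Single T cell markers, tested with edgeR over all genes of a table (called at an adjusted p under 0.05), had 31 calls lower and 5 higher over the 13 comparisons. These sums have no share of all genes beside them, so each comparison is given with its own. Where markers were called lower, their share was below that of all genes in C442G/C442G and -/C313Y. It was near that of all genes in +/C313Y and above it in the rest. In Y86C/Y86C 6 of 15 tested fell and 2 rose, in a table where 27.9% of genes were called lower and 21.7% higher, and the list's median was -0.70 (log2). Dntt, which adds nucleotides to receptor gene joints in thymocytes, fell by 2.32, and Ptcra, the pre-T cell receptor alpha chain, by 2.62 on the log2 scale. Cd4 and Cd6 rose by 0.74 and 0.82, though neither call held with +/+ library 2 left out.

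Of 20 markers tested in C313X/C313X, 8 fell and 0 rose, where 15.2% of genes were called lower and 7.82% higher. Cd8b1, a chain of the CD8 coreceptor, fell by 1.44 and Lck, the kinase bound to CD4 and CD8, by 1.32. In C442G/C442G 3 of 17 fell and 3 rose (23.1% and 19.5% of genes), with Zap70, a kinase of the T cell receptor, lower by -1.77 ± 0.28 (edgeR, adjusted p = 4.57e-06) and Cd4 higher by 0.85 ± 0.20 (edgeR, adjusted p = 0.000982). In +/C442G 4 of 17 fell and 0 rose (13.4% and 13.1%), with Lck at -1.37 ± 0.22.

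The B6 null line had 0 of 14 called in either direction by edgeR or by DESeq2, where 17.7% of genes were called higher and 18.9% lower. NOD Aire-/- had 6 of 18 lower and 0 higher (9.11% and 4.22%), with Cd3g at -1.98 ± 0.42 and Cd3d at -1.50 ± 0.34. In -/C313Y 2 of 18 fell (12.9% of genes lower, 9.83% higher), Cd3g by 1.65 and Cd2 by 1.12, the latter not called in 7 of 12 alternatives. In +/C313Y, Thy1 and Cd4 fell (2 of 18, where 11.0% of genes were lower and 6.37% higher). V303M/V303M had 0 of 17 called, where 0.0146% of genes were called higher and 0.0511% lower.

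Genes of regulatory and activated T cells did not move in 1 direction. Of 15 on the list, 9 to 11 were tested per comparison, and Foxp3, Tigit and Ccr8 were not analysed here. Gpr83, a receptor enriched in regulatory T cells, and Izumo1r, folate receptor 4 of those cells and the egg's receptor for sperm, were called lower in all B6 homozygotes, +/C442G, +/C313Y, NOD Aire-/- and -/C313Y. In the B6 null line the log2 differences were -3.91 ± 0.56 and -2.601 ± 0.32, and in Y86C/Y86C -6.19 ± 0.74 and -3.19 ± 0.35. In NOD Aire-/- each call was lost with 1 library left out (Gpr83, adjusted p = 0.0527 without library 405; Izumo1r, 0.0554 without library 404; edgeR).

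Other members of the list rose. Tnfrsf4 (OX40) and Tnfrsf9 (4-1BB), receptors of activated T cells, rose by 0.70 and 0.42 in the B6 -/- libraries, 1.12 and 0.87 in Y86C/Y86C and 0.75 and 0.84 in C442G/C442G, all log2 differences called by edgeR. The Tnfrsf9 call in the B6 null line did not hold without the +/+ library Aire_wt_430 or Aire_wt_434. Lag3, an inhibitory receptor that binds MHC class II, rose by 1.31 ± 0.30 in the B6 null line and 1.19 ± 0.23 in Y86C/Y86C. In all, 3 members rose and 3 fell of 9 tested in the B6 null line (17.7% and 18.9% of all genes) and as many in Y86C/Y86C (21.7% and 27.9%). In C313X/C313X 2 rose and 2 fell of 11 (7.82% and 15.2% of all genes), and in C442G/C442G 2 rose and 3 fell of 10 (19.5% and 23.1%). The share of members called lower in Y86C/Y86C, C313X/C313X and C442G/C442G was near that of all genes.

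The ligands of the family, by contrast, had calls in the higher direction and none lower. In the B6 null line 3 of 5 tested rose, where 17.7% of all genes did, with Icosl (ICOS ligand) at 0.78 ± 0.11 (log2, SE; edgeR, adjusted p = 6.99e-06), Cd86 at 0.73 ± 0.19 (edgeR, adjusted p = 0.00239) and Cd80 at 0.44 ± 0.15. The Cd80 call was lost with DESeq2 and without Aire_wt_430, Aire_wt_432 or Aire_KO_431, with adjusted p up to 0.166 over its alternatives. The list's median was 0.50.

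The same 3 rose in Y86C/Y86C, by 1.63 ± 0.12, 1.48 ± 0.20 and 1.11 ± 0.13, with a list median of 1.11, where 21.7% of all genes rose. In +/Y86C only Icosl was called, at 0.52 ± 0.12, where 2.33% of genes were called higher, and 4 of its 10 alternatives did not call it. Cd80 and Icosl rose in C313X/C313X by 1.07 ± 0.21 and 0.81 ± 0.15, 2 of 5 tested against 7.82% of all genes.

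In C442G/C442G 4 of 6 rose (19.5% of all genes), Icosl by 1.10 ± 0.13, Cd80 by 0.86 ± 0.15, Cd86 by 0.68 ± 0.16 and Cd274, the ligand of PD-1, by 0.36 ± 0.14. The Cd274 call did not hold in 7 of 13 alternatives. The 4 also rose in +/C442G (13.1% of all genes), Cd80 by 0.95 ± 0.16, although Icosl there was not called without +/+ library 88 (edgeR, adjusted p = 0.0893). In -/C313Y Cd86 rose by 2.08 ± 0.41 (edgeR, adjusted p = 0.000526) and Cd80 by 1.71 ± 0.32 (edgeR, adjusted p = 0.000302), 2 of 6 where 9.83% of all genes rose. In NOD Aire-/- Icosl was the only one of 6 called, where 4.22% of all genes rose, at 0.57 ± 0.17, and 3 of its 11 alternatives did not call it. No ligand was called in +/C313Y or V303M/V303M.

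Icosl lies near Aire on chromosome 10, with 25.7 kb between them in GENCODE (Aire chr10:78030022-78043610, Icosl chr10:78069302-78083913). DNA around each Aire allele thus includes Icosl, and the part of that DNA in the Icosl values was not tested. Markers of other antigen-presenting cells moved in both directions beside the ligands. Of myeloid and dendritic cell markers, 3 rose and 2 fell of 10 in the B6 null line (17.7% and 18.9% of all genes), 3 rose and 4 fell of 8 in Y86C/Y86C (21.7% and 27.9%), and 3 rose and 5 fell of 9 in C442G/C442G (19.5% and 23.1%). Itgam, CD11b, fell (-1.81, -2.57 and -2.77), and Batf3, a transcription factor of dendritic cells, rose by 1.83, 2.27 and 1.40 (log2). Of B cell markers, Blk rose by 1.495 and Cd22 fell by 1.41 in the B6 null line. Their part in the ligand values was not tested.

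Proteins that carry CTLA-4 to and from the cell surface or act below the receptors were called in 1 of 11 cases in the B6 null line, below the shares of all genes (17.7% higher and 18.9% lower), and in 3 of 10 in Y86C/Y86C (21.7% and 27.9%). Lrba, which keeps CTLA-4 from being degraded, rose by 0.38 ± 0.12 in the B6 null line, 0.34 ± 0.12 in Y86C/Y86C and 0.89 ± 0.15 in +/C313Y (edgeR, adjusted p = 5.57e-05). The first of these was not called without Aire_wt_434 or Aire_KO_429, and the second was not called in 4 of 10 alternatives.

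Of the partners of lamellipodin, Evl, an Ena/VASP protein, fell by 0.60 ± 0.11 in the B6 null line, 1 of 7 tested and near the 18.9% of all genes called lower. In Y86C/Y86C 3 partners rose and 1 fell of 7 tested, where 21.7% of all genes were called higher and 27.9% lower. Wasf2 and Abi1, members of the WAVE complex that drives actin branching, rose there by 0.47 and 0.41, and Apbb1ip was lower, at -0.60. Vasp rose by 0.55 ± 0.15 in C442G/C442G (edgeR, adjusted p = 0.00371). It was the only partner called in that group, where 19.5% of all genes were called higher.

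Further along chromosome 1, Pard3b, which encodes a cell polarity protein and starts 729.6 kb from Ctla4, was called higher in 7 comparisons. The log2 difference was 1.12 ± 0.20 in the B6 null line (edgeR, adjusted p = 4.06e-05), 1.31 ± 0.22 in Y86C/Y86C, 1.45 ± 0.19 in C442G/C442G, 1.48 ± 0.19 in +/C442G, 0.98 ± 0.24 in NOD Aire-/- and 1.33 ± 0.27 in -/C313Y. In C313X/C313X it was 2.29 ± 0.54, not called without C313X/C313X library 1 (edgeR, adjusted p = 0.0572). Over these 7 comparisons, the share of all genes called higher ran from 4.22% in NOD Aire-/- to 21.7% in Y86C/Y86C.

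Nrp2, a neuropilin that starts 1794.3 kb from Ctla4, rose by 1.25 ± 0.24 in -/C313Y (edgeR, adjusted p = 0.000266) and by 0.67 ± 0.16 in +/C442G. Its values of 0.42 ± 0.17 in the B6 null line and 0.72 ± 0.22 in NOD Aire-/- were called but were lost in 7 and 4 of 11 alternatives. Of all genes, 9.83% were called higher in -/C313Y, 13.1% in +/C442G, 17.7% in the B6 null line and 4.22% in NOD Aire-/-. Abi2, on the other side, was called in none. Raph1 and Abi2 thus had no large differences in most lines where Ctla4 and Pard3b did, apart from Raph1 in the C313X table.

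**Figure D4:**
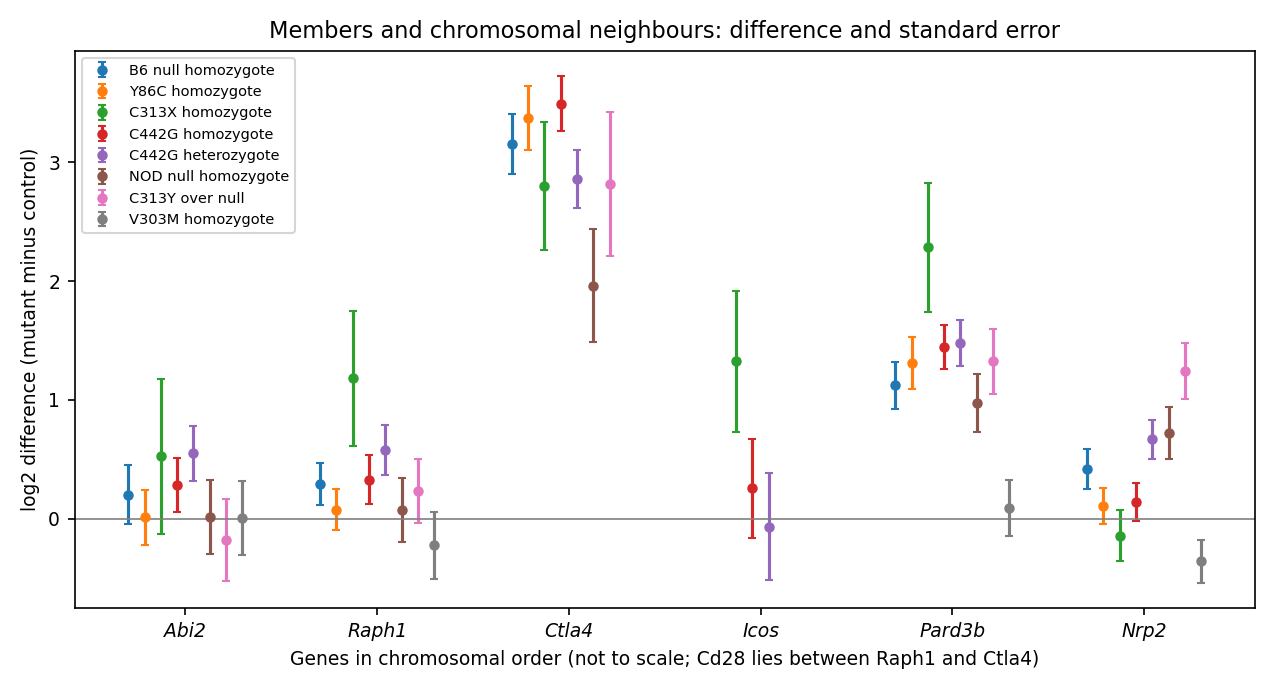
Fitted log2 differences from control (± SE) of genes on chromosome 1, in chromosomal order and not to scale, for 8 comparisons marked by colour. Points are missing where a gene did not pass the filter, and Ctla4 and Pard3b lie above Raph1 and Abi2 in each comparison drawn other than V303M homozygotes.

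Within groups, no relation of Ctla4 with T cell markers passed the test. Deviations of log2 CPM from the group mean gave a Pearson r of -0.122 with Cd3e over 64 libraries (p = 0.384) and a Spearman rho of -0.185 (p = 0.211), each a permutation test within groups. Without the 2 libraries farthest from the median r was -0.118. Against the summed T cell markers r was -0.018 over 73 libraries (permutation p = 0.884), and rho -0.016. Within strains the Ctla4 to Cd3e value was -0.141 on B6 and -0.099 on NOD.

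Within groups Ctla4 gave r = 0.211 with Aire (permutation p = 0.278), and -0.079 with Raph1 (permutation p = 0.732). Cd28 and Icos gave 0.072 and 0.081 with Cd3e, and 0.173 and 0.012 with the summed markers. All 8 relations had an adjusted p of 0.934 for r and of at least 0.910 for rho. Cd28, Icos and Cd3e are low counts, and in sparse counts a weak correlation is no finding, nor does it show that genes vary apart.

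By pattern over 73 libraries of differences from the mean of the control libraries, the 5 genes most like Ctla4 among 11402 were Nrg1 (r = 0.919), Ank (0.914), Syn2 (0.913), Irf8 (0.911) and Rad50 (0.910). Nrg1 encodes the growth factor neuregulin, Ank a phosphate transporter, Syn2 a synaptic vesicle protein, Irf8 a transcription factor of immune cells and Rad50 a DNA repair protein. These points share tables, control libraries and depth, so r is a description with no p. By Spearman rho the 5 ranked from 2 to 20, on B6 alone from 8 to 18 and on NOD alone from 12 to 109 by r.

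Nrg1 stood at 179 ± 23.9 CPM (SD, n = 4) in the B6 -/- libraries against 40.3 ± 2.78 (n = 3), at 205 against 49.7 in Y86C/Y86C, and at 209 in +/C442G against 69.6. Syn2 stood at 189 ± 7.10 CPM in -/C313Y against 42.2 ± 4.94 in wild type (SD, n = 3 each). Aire stood at rank 185, r = 0.796, and Raph1 at r = 0.168.

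**Figure D5:**
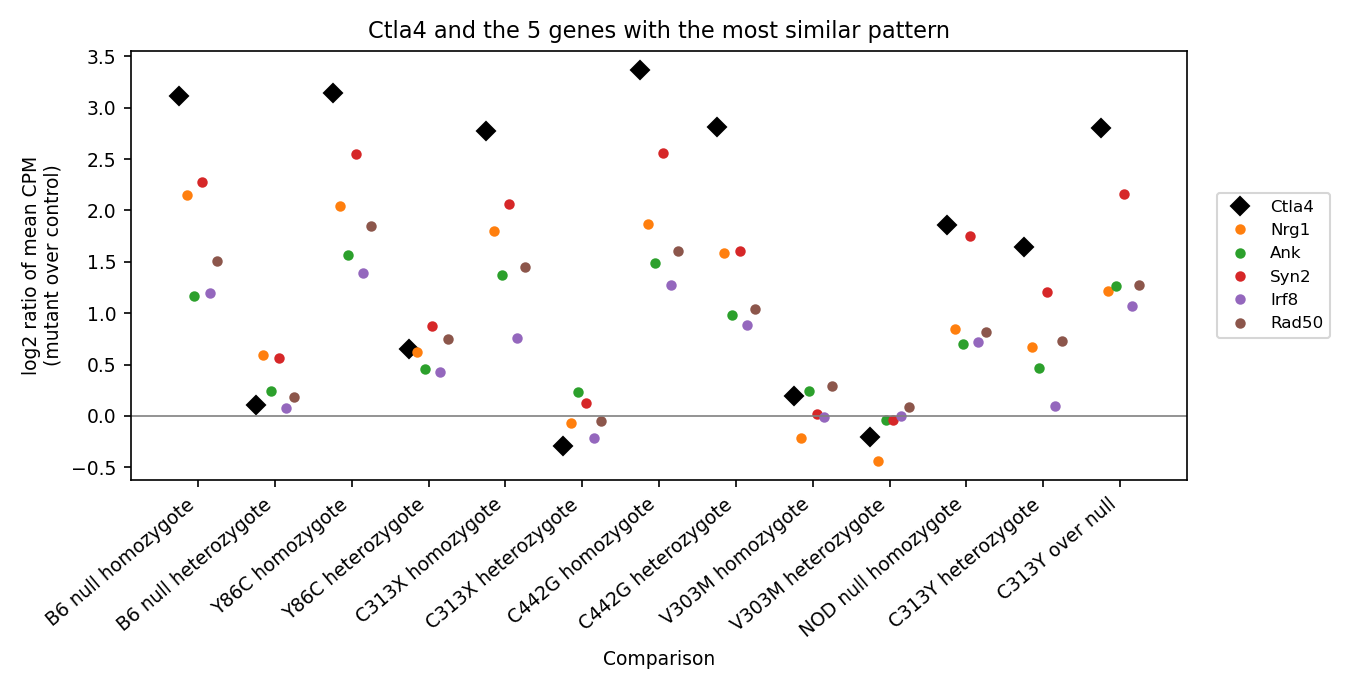
The log2 ratio of mean CPM (mutant over control) in each comparison for Ctla4 (diamonds) and the 5 genes whose pattern was most like it (points). All 6 genes lie above 0 in the B6 homozygotes, NOD Aire-/- and -/C313Y. In V303M/V303M Ctla4, Ank, Syn2 and Rad50 are also above 0, and Nrg1 and Irf8 below it. In +/V303M only Rad50 lies above 0.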

How the data were processed

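The authors deposited raw counts per gene and library in 6 tables, and only these deposited counts entered the fits. Every listed gene reaches 6 counts in some library. The processing notes of the submitters name cutadapt, bcl2fastq, HTSeq, STAR (2.4.2a) and DESeq2, and mm10 (GRCm38) as the build. The annotation is not given in the sources used here, nor is whether strand was used or molecular identifiers were collapsed. The 148 other per-sample columns were not used.

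Members and gene lists were chosen with earlier results of these data known. Counts were fitted per table, all groups together, in R 4.3.3 by the quasi-likelihood method of edgeR 4.0.16 (TMM factors, filterByExpr), with Benjamini-Hochberg adjustment over all tested genes and a threshold of 0.05. CPM are counts scaled to the library total, and log2 CPM used a prior count of 2. Ctla4 passed the filter in 5 tables, Raph1 in 6, Icos in 2 and Cd28 in 0. Named genes were the 4 members, Aire, Cd3e, up to 4 called genes of each list with the largest change, defining markers, and the 5 genes most like Ctla4. Correlations used 100000 permutations within groups. One library, titled wild type with a -/- genotype label, entered no group. Also tried were RLE factors, DESeq2 1.42.0, no filter on counts, only the compared groups, each library left out, other NOD wild types and a replicate block. The edgeR fit was tested on simulated data with known changes.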

Additional observations from a re-analysis of the deposited data

Results flagged for a closer look

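A sample far from the others of its group was found in 4 of 42 combinations of a group and a value looked at, where chance gives about 1 in 20. Ctla4 in C442G/C442G library 83 was at 83.27 CPM, and Icos in C442G/C442G library 90 at 6.499 CPM. Raph1 in +/C442G library 81 was at 39.4 CPM, and Cd3e in the +/- library Aire_het_435 of the B6 null line at 2.805 CPM.

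In 13 of 130 combinations of a gene and a pair of comparisons, every library of one mutant group lay above the mean of its controls and every library of the other below the mean of its own. This does not require that the mutants and the single control libraries do not overlap. The differences between the pairs were not tested, and values are the first CPM difference minus the second. For Raph1 the B6 null homozygotes differed by 5.615 from Y86C homozygotes and by 3.74 from the NOD null. Y86C homozygotes differed by -5.59 from C313X homozygotes, which differed by 3.715 from the NOD null. For the heterozygotes of C313X and C442G against +/C313Y the Raph1 values were 8.331 and 9.567.

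For Cd3e the B6 null homozygotes differed by 6.403 from C313X, 2.651 from C442G and 4.529 from NOD null homozygotes. The B6 null heterozygotes differed by 5.102 from those of C313X and by 2.681 from those of C442G. For Cd28 the value was 0.9768 for +/C313X against +/V303M and -1.06 for +/V303M against +/C313Y, on counts of a few tags.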

How the results depend on the processing

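Of the log2 differences of Ctla4, every one of the 9 comparisons with a value above 0.5 kept its sign under every alternative and with each library left out. With all 8 NOD wild types as control the NOD null value was 3.537 instead of 1.96. Left-out libraries gave 2.972 to 3.515 in the B6 null line and 1.875 to 2.155 in NOD Aire-/-. For Cd3e they gave -1.552 to -1.082 in C313X homozygotes, called at -1.497 without the +/+ library 2 (edgeR, adjusted p = 0.0423), -1.493 to -0.6565 in NOD Aire-/- (-0.5048 with all 8 NOD wild types), -0.4951 to 0.04842 in +/V303M and -1.035 to 0.4316 in -/C313Y. Leaving out 1 library of +/C313X leaves 1 there, assumed to vary like the other groups.

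The summed T cell markers ran from -32.05 to 5.085 CPM in B6 -/- and from -30.37 to 6.834 in +/Y86C with a library left out, and were 7.694 and 6.287 without Thy1. T cell markers called higher, summed over the comparisons, went from 5 to 3 with DESeq2, and ligands called lower from 0 to 1 without the filter. Raph1 ranges higher without overlap went from 1 (+/C313X) to 3 on TMM-scaled totals, and those of Ctla4 from 7 to 8, with +/Y86C added. Over the comparisons, 3.34% to 25.9% of all genes had such a range on TMM-scaled totals, and 2.32% to 15.4% in CPM. In the B6 null line 20.5% of genes were higher and 21.2% lower without overlap on TMM-scaled totals, against 15.4% and 26.9% in CPM.

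None of the correlations that changed sign passed the test. Ctla4 with the T cell sum gave 0.09401 on B6, 0.01046 without the Y86C table and 0.06049 without V303M, Ctla4 with Aire -0.06575 on NOD, and Ctla4 with Raph1 0.08907 without the shared NOD table. Cd28 gave -0.04698 (Cd3e) and -0.07591 (T cell sum) on B6, and -0.08281 and -0.08243 without the shared NOD table. Icos with the T cell sum gave -0.001727 at 1500000 counts or more, -0.3093 on B6, -0.1148 without V303M and -0.0633 without the shared NOD table. The cause of these changes was not tested.

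The labels do not say whether the replicate numbers shared by -/C313Y and its wild types pair libraries. Correlations of same-numbered deviations were 0.0638, -0.0377 and 0.1572, which cannot settle it, as differently numbered libraries were not compared. With a replicate block the Ctla4 difference was 2.871, and T cell markers called lower went from 2 to 6. Counts of a few tags per library limit Cd28, Icos and Cd3e.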

Other observations

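One library of the B6 null line, Aire_wt_438, has a title and a genotype label that differ, and it entered no group. It held 12 Ctla4 counts (5.96 CPM), 1 Cd28 count, 3 Icos counts (1.49 CPM), 52 Raph1 counts (25.8 CPM), 1 Cd3e count and 4556 Aire counts (2264 CPM) in a total of 2012668.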
